A study of Homo sapiens with 8 samples.

Results

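Interferon-stimulated genes are the genes that cells turn on when interferon reaches them, and 47 of them were followed here in leukemia cells exposed to the anti-inflammatory drug diclofenac. Their symbols had been listed, and every probe set annotated to 1 of them was read from the deposited value table. Probe sets were found for 45 of the 47 genes, 65 in all, out of 11963 genes on the array. IFI30 and STAT2 were not analysed here. Of the 45 genes, 13 had several probe sets, and the probe set brightest on average over the 8 arrays (mean log2) stands for its gene.

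The study exposed 2 human acute myeloid leukemia lines to diclofenac, a cyclooxygenase inhibitor, and its title concerns cell death and differentiation caused by such drugs. HL-60 is labelled as promyelocytic leukemia and THP-1 as monocytic leukemia. The 4 groups were HL-60 with DMSO, HL-60 with 100 µM diclofenac, THP-1 with DMSO and THP-1 with 100 µM diclofenac. DMSO is the solvent and served as control, exposure lasted 48 h in every group, and all cells grew in the same serum-containing medium. Each group held 2 arrays titled as biological replicates. P-values below measure the spread between such pairs of arrays, and nothing else in the labels says that the cultures were separate. Each disease type is represented by a single established line, so line and disease type cannot be told apart.

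Type I interferons bind a receptor made of IFNAR1 and IFNAR2, which activates the kinases JAK1 and TYK2. The signal reaches the nucleus, where a complex that contains IRF9 binds a promoter sequence called the interferon-stimulated response element (ISRE). Interferon gamma uses its own receptor, and its targets carry another sequence, the gamma-activated site (GAS). The products block viral entry, degrade or edit viral RNA, tag proteins with the ubiquitin-like ISG15 and feed peptides to class I antigen presentation. Many are also kept at a low level by autocrine interferon, and some are used by myeloid cells for other ends.

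Promoter windows of the members were read for that element. RefSeq (GRCh38.p14) gave a promoter for 37 of the listed genes, and the 250 bases before the start were searched on both strands for the ISRE core GAAANNGAAA. It was present in 20 of the 37 (54.1%), against 839 of all 27305 promoters (3.07%). The GAS core TTCNNNGAA was found in 7 member promoters (18.9%) and in 6.78% of all promoters. A match is a run of letters and not a measured binding site. The 6 windows below belong to the 2 genes that passed the test in THP-1 (IFI6 and LAP3), to 3 genes whose arrays moved in opposite directions in the 2 lines (IFIT3, IFITM1 and IFITM3) and to ISG15. Capitals mark the ISRE core on either strand. The windows are IFI6 at chr1:27672193-27672442 (minus strand), LAP3 at chr4:17576948-17577197 (plus strand), IFIT3 at chr10:89327747-89327996 (plus strand), IFITM1 at chr11:313790-314039 (plus strand), IFITM3 at chr11:320861-321110 (minus strand) and ISG15 at chr1:1013247-1013496 (plus strand).
IFI6: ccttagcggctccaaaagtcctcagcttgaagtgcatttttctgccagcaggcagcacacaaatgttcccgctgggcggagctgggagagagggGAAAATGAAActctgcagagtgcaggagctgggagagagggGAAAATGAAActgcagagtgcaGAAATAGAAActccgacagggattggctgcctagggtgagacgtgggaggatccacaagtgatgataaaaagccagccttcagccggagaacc
LAP3: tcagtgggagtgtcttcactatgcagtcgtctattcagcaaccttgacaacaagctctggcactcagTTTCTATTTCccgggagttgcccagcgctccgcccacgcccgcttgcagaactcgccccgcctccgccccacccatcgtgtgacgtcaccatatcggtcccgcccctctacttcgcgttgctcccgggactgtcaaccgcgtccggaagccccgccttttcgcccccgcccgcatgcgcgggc
IFIT3: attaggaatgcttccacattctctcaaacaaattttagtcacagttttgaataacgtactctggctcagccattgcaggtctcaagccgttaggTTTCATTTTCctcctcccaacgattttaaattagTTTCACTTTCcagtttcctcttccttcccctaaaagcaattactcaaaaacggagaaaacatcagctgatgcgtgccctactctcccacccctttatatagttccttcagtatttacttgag
IFITM1: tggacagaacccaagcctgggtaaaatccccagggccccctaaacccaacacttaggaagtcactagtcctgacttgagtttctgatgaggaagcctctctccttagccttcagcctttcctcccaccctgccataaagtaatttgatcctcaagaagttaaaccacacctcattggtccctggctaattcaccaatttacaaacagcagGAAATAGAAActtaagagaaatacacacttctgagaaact
IFITM3: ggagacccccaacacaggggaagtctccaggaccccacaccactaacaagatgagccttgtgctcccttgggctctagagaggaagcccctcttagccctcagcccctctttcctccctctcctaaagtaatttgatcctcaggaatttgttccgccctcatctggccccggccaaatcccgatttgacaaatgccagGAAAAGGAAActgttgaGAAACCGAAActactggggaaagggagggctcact
ISG15: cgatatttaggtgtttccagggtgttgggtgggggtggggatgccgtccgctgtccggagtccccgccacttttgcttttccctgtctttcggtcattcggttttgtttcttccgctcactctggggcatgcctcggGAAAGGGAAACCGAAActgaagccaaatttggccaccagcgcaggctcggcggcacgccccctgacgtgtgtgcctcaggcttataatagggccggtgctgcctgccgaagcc
The IFI6 window held 3 cores, which began 156, 115 and 93 bases before the start. LAP3 had 1 core, 183 bases before its start, and IFITM1 had 1 at 40 bases. The ISG15 cores, which began at 113 and 107 bases, overlap each other.

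Signal means the deposited intensity of a probe set, a linear number scaled to the same trimmed mean on each array. The background of an array was the 95th percentile of its control probe sets for bacterial sequences, which human RNA does not contain. That background was 33.2 to 60.2 on 7 arrays and 239 on THP-1 DMSO replicate 2, whose correlation with replicate 1 was 0.898 against 0.977 to 0.984 for the other pairs. Members above background numbered 36 to 44 of 45 on the other 7 arrays and 30 on this one. Its signal is the second value given for THP-1 with DMSO, and under 239 it was not above background. That holds below for IFI6, IFIT1, IFIT2, IFIT3, IRF7, IRF9, OAS3, MX1, GBP2 and USP18, and for IFIH1 and UPP1. Both arrays of a group were above it for 34 members in HL-60 with DMSO, 37 in HL-60 with diclofenac, 29 in THP-1 with DMSO and 42 in THP-1 with diclofenac. IFI44L, IFIT5 and GBP1 passed on both arrays in no group. Results of THP-1 against its control are therefore given with and without replicate 2, and the part of its high background in them was not tested beyond that. Marker genes were found in both lines. Of 8 granule genes, which mark promyelocytes, 7 were above background on both arrays of HL-60 with DMSO, all but MPO, and 7 in THP-1 with DMSO. Of 9 monocyte genes, 7 were above it in HL-60 and 6 in THP-1. Under DMSO, 5 granule genes were called higher and 1 was called lower in THP-1 than in HL-60. For the monocyte genes, 1 was called higher and 2 were called lower. Of all genes, 9.28% were called higher and 9.41% lower. MEIS1, a leukemia gene listed as a THP-1 marker, had 328 to 384 in THP-1 with DMSO and 635 to 670 in HL-60. It was called lower in THP-1 under DMSO and under diclofenac. These markers do not settle which line is which, and the lines are named here by their labels. With diclofenac in THP-1, 0 of 9 monocyte genes and 1 of 8 granule genes passed the test, the latter lower, and their part in the results below was not tested. In whole cultures, fewer cells of a kind and less RNA per cell cannot be told apart.

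With diclofenac, 2 of 45 members rose in THP-1 past the limma test, against 0.176% of all 11963 genes, and 0 members fell, against 0.00836%. IFI6, a mitochondrial protein that restrains apoptosis, rose 5.99-fold, or 4.14-fold without THP-1 DMSO replicate 2. LAP3, a leucine aminopeptidase that trims peptides, rose 1.96-fold, or 2.02-fold without that array. IFI16, a nuclear DNA sensor, had the next lowest adjusted p (0.080), at 1.87-fold, and was among the called members without replicate 2, at 1.71-fold. The size of the change ranged from -0.55 for OAS2 to 2.58 for IFI6 on the log2 scale, with 33 of 45 members above 0.

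IFI6 signal was 187.7 and 131.4 in THP-1 with DMSO and 981.2 and 1045.3 with diclofenac, and in HL-60 it was 698.2 and 770.2 with DMSO against 1281.6 and 1130.7 with diclofenac. Both THP-1 control arrays lay far below the other 6 arrays, and the THP-1 groups did not overlap. The value of 131.4 was below the background of its array. The log2 change in THP-1 was 2.58 ± 0.34 (SE, n = 2 arrays per group; 95% interval 1.81 to 3.35, limma adjusted p = 0.042) and without replicate 2 it was 2.05 (limma adjusted p = 0.0029). LAP3 signal was 1034.5 and 994.9 in THP-1 with DMSO, 2024.4 and 2308.3 with diclofenac, 2215.2 and 2311.3 in HL-60 with DMSO and 1924.8 and 2178.1 with diclofenac. Again the THP-1 control arrays alone were low, at about the same value on both. The log2 change of LAP3 was 0.97 ± 0.11 in THP-1 (limma adjusted p = 0.026), and 1.01 without replicate 2 (limma adjusted p = 0.035).

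All 8 arrays share 1 estimate of the spread, and neither call held in every fit that left out an array. Omitting 1 of the 4 HL-60 arrays, whichever it was, moved the limma adjusted p of IFI6 to between 0.13 and 0.16 and that of LAP3 to between 0.087 and 0.11, so that 0 members passed. Leaving out either THP-1 diclofenac array also left 0, with adjusted p from 0.31 to 0.47 for the 2 genes. Without THP-1 DMSO replicate 1, which leaves the array with high background as the only control, 23 members passed, 15 higher and 8 lower, where 32.7% of all genes were called in either direction. Without replicate 2, 3 passed, IFI6, LAP3 and IFI16 (0.301% of all genes). The change of IFI6 itself was 2.05 to 3.17 over these 8 fits and that of LAP3 0.88 to 1.06.

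The spread of all genes gives the background for the counts of members. Diclofenac arrays lay above both DMSO arrays for 23 of 45 members, where 19.4% of all genes did, and below them for 1 member, OAS1, where 21.3% of all genes did. The 23 include IFI44L and GBP1, which passed background on both arrays in no group. The deposited signals without normalization gave 20 members above (14.6% of all genes) and 2 below (20.6%). Without replicate 2, 35 members were above the remaining control array, where 35.4% of all genes were, and 41 of 45 changes were above 0, against 49% of all genes. The median change of the members was 0.27, and 0.36 without replicate 2, beside -0.01 for all genes in both. Over the 42 members above background on both arrays of some group, the median was 0.18, and 0.37 without replicate 2. At an unadjusted p under 0.05, 12 members were higher (6.28% of all genes) and 1 was lower (5.57%).

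**Figure D1:**
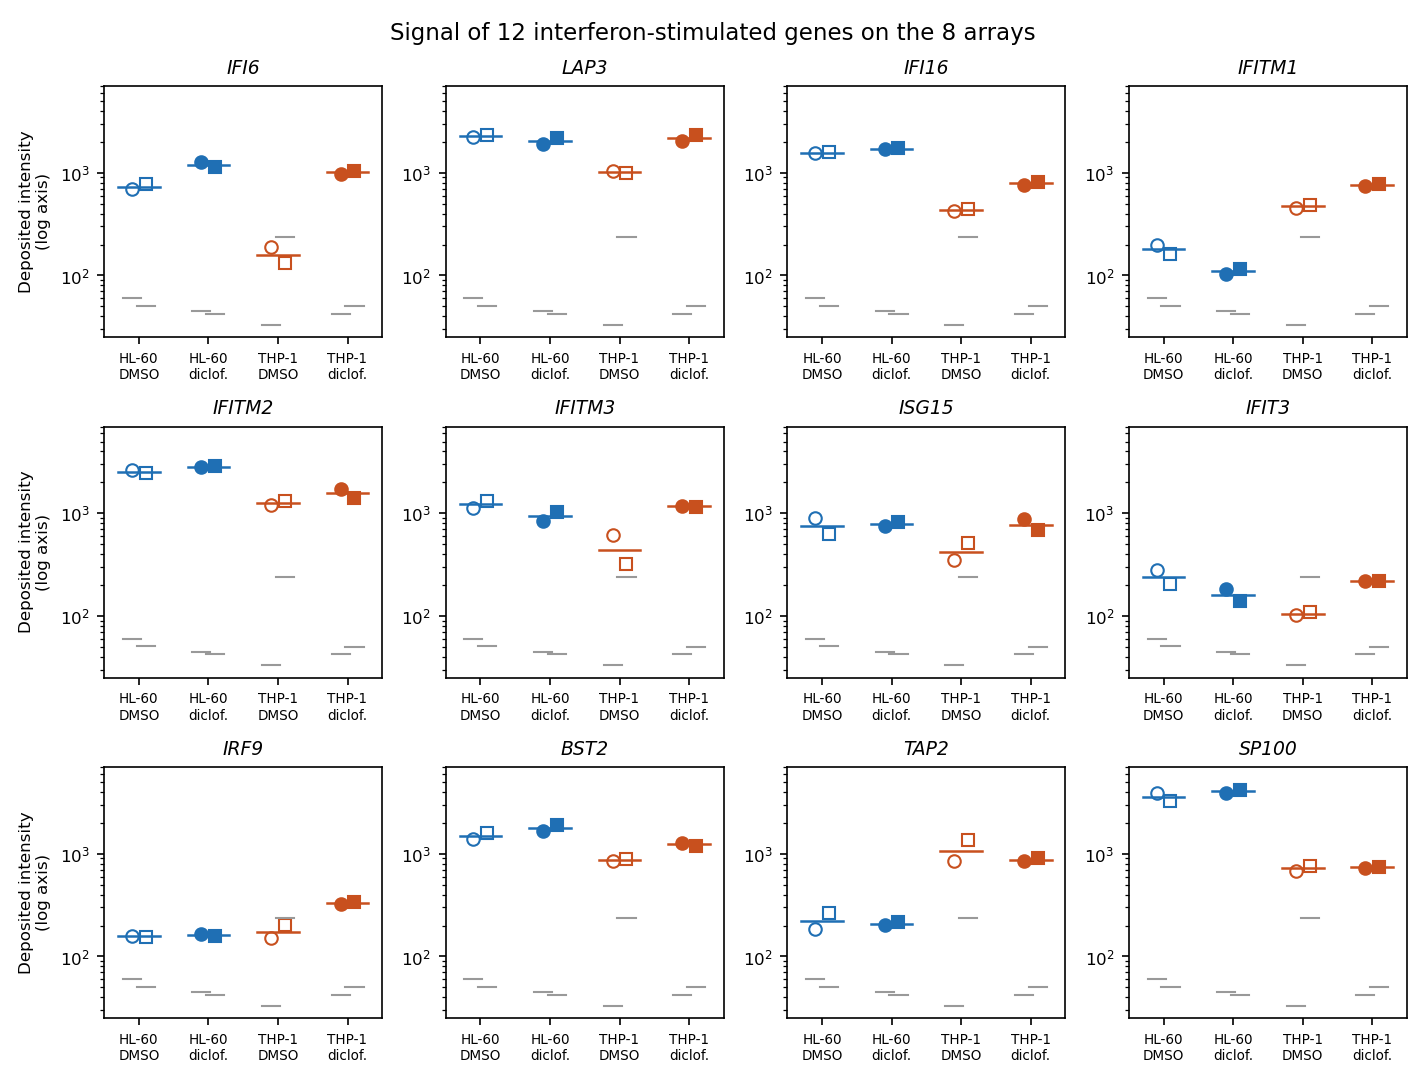
Deposited signal of 12 members on the 8 arrays, on a log axis, by group. Circles are replicate 1, squares replicate 2, coloured lines the geometric mean of the group and short grey lines the background of each array. IFI6 and LAP3 are low on both THP-1 DMSO arrays (IFI6 at 187.7 and 131.4, LAP3 at 1034.5 and 994.9), SP100 and IFI16 are lower on all 4 THP-1 arrays than on all HL-60 arrays, and the background of THP-1 DMSO replicate 2 stands at 239.

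The transcription factors came first in the order of roles. Of the 4 measured, 0 passed the test in either line, and the median change was 0.51 in THP-1, or 0.09 without replicate 2. IRF9, a DNA-binding factor of the type I interferon response, had signals of 151.7 and 202.0 in THP-1 with DMSO and 324.3 and 338.1 with diclofenac, beside 158.5, 156.5, 166.5 and 157.9 in HL-60. The pair of THP-1 diclofenac arrays thus lay above the other 6. Its log2 change in THP-1 was 1.08 ± 0.32 (limma adjusted p = 0.33) and 0.85 without replicate 2. IRF7, which amplifies type I interferon production, had 229.3 and 131.5 in THP-1 with DMSO and 267.3 and 301.3 with diclofenac. In HL-60 its signal was 195.3 and 202.1 with DMSO against 275.2 and 211.9 with diclofenac. The IRF7 groups did not overlap in either line, but its THP-1 change of 0.90 shrank to 0.18 without replicate 2. IRF1 and IRF2, an activator and a repressor that share binding sites, had THP-1 changes of 0.11 and -0.05.

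The RNA and DNA effectors held 12 members, 0 of which passed the test in either line, with a THP-1 median of 0.31. In THP-1, 6 of the 12 lay above their controls, where 19.4% of all genes did. The IFIT proteins bind viral RNA that lacks a self cap. IFIT1 signal was 8.3 and 73.7 in THP-1 with DMSO, both below background, against 135.7 and 216.3 with diclofenac. In HL-60 it was 99.8 and 106.2 with DMSO against 84.0 and 136.4 with diclofenac. IFIT1 was thus at least 1.84-fold higher with diclofenac in THP-1, where a bound is given because neither control array exceeded background, and HL-60 groups overlapped (limma adjusted p in THP-1 = 0.20).

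IFIT3 signal was 101.5 and 109.1 in THP-1 with DMSO and 218.7 and 217.7 with diclofenac, a log2 change of 1.10 ± 0.36 (limma adjusted p = 0.37). The value of 109.1 was below the background of its array. In HL-60 IFIT3 moved the other way, from 282.6 and 203.1 to 182.7 and 138.8. IFIT2 had 62.1 and 39.7 against 128.5 and 71.2 in THP-1, and 101.9 and 79.7 against 90.7 and 51.8 in HL-60. Its THP-1 groups did not overlap, but the change of 0.86 was 0.31 without replicate 2. IFIT5 was above background on 1 array only, so no fold is given.

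IFI16 had 420.8 and 441.6 in THP-1 with DMSO and 766.1 and 817.5 with diclofenac, beside 1544.9 and 1579.4 in HL-60 with DMSO and 1686.8 and 1742.2 with diclofenac. Every THP-1 array was below every HL-60 array, and diclofenac arrays were above DMSO arrays in both lines. The log2 change was 0.90 ± 0.14 in THP-1 (limma adjusted p = 0.080; 0.77 at 0.049 without replicate 2) and 0.12 ± 0.14 in HL-60. The other probe sets of IFI16 had THP-1 changes of 1.31 and 0.86.

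The OAS enzymes make the small messenger that activates RNase L. OAS1 was the only member whose THP-1 diclofenac arrays were both lower after normalization, and in the deposited signals USP18 was lower too. OAS1 signal was 1512.0 and 1729.4 with diclofenac against 1884.0 and 1745.2, with 2373.9 and 2258.1 in HL-60 with DMSO and 2476.9 and 2235.5 with diclofenac. Its change of -0.29 did not pass (limma adjusted p = 0.44), and a dimmer OAS1 probe set gave 0.89. OAS3 signal was 70.2 and 179.0 in THP-1 with DMSO and 83.6 and 87.5 with diclofenac, beside 359.0 and 264.9 in HL-60 with DMSO and 360.8 and 396.3 with diclofenac. The THP-1 groups of OAS3 were apart after normalization, by a change of 0.09, and overlapped in the deposited signals. OAS2 and OASL, a relative without the enzyme activity, had THP-1 changes of -0.55 and -0.40, which became 0.15 and 0.41 without replicate 2.

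ADAR, which edits adenosine in double-stranded RNA, showed 2593.1 and 1955.5 in THP-1 with DMSO, 2597.0 and 2856.7 with diclofenac, 2533.7 and 2109.6 in HL-60 with DMSO and 2402.8 and 2265.5 with diclofenac. All 4 groups were close together, and its THP-1 change was 0.14. The RNA-activated kinase EIF2AK2 had a change of -0.21 by its brighter probe set and 1.31 by the other. Without replicate 2 these were 0.28 and 0.84, both above 0. ISG20, an RNA exonuclease, had 0.76 in THP-1, and 0.04 without replicate 2.

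Among 6 proteins of membranes, entry and release, 0 passed in either line and the THP-1 median was 0.50. In THP-1, 4 of the 6 lay above their controls, where 19.4% of all genes did. The IFITM proteins block fusion of incoming viruses, are close copies of each other and lie side by side. The probe sets of IFITM2 and IFITM3 are of the kind marked as able to bind several transcripts, so that their split is uncertain. IFITM3 signal was 613.5 and 317.9 in THP-1 with DMSO and 1179.4 and 1164.0 with diclofenac, a log2 change of 1.53 ± 0.38 (limma adjusted p = 0.26; 0.85 at 0.13 without replicate 2). In HL-60 it was 1121.4 and 1324.3 with DMSO against 845.0 and 1030.2 with diclofenac, so the groups were apart in opposite directions in the 2 lines.

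IFITM1 had 453.9 and 487.5 in THP-1 with DMSO and 749.8 and 773.0 with diclofenac, and 199.7 and 160.8 against 104.3 and 116.1 in HL-60. Here too the lines moved in opposite directions, by 0.71 ± 0.22 in THP-1 (limma adjusted p = 0.37) and -0.36 in HL-60. BST2, which tethers budding virions, had 847.0 and 896.7 in THP-1 with DMSO and 1286.0 and 1197.5 with diclofenac. Its HL-60 signal was 1400.8 and 1582.9 with DMSO against 1684.5 and 1888.7 with diclofenac, so that diclofenac arrays were higher in both lines, by 0.44 in THP-1 and 0.24 in HL-60.

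PLSCR1, a phospholipid scramblase, had 1228.4 and 1110.7 in THP-1 with DMSO and 1969.9 and 1755.7 with diclofenac, beside 648.3 and 849.2 in HL-60 with DMSO and 658.5 and 689.6 with diclofenac. All THP-1 arrays were above all HL-60 arrays, and the THP-1 change was 0.56 with or without replicate 2 (limma adjusted p = 0.31 with all arrays). RSAD2, also called viperin, had -0.09, and 0.83 without replicate 2. IFITM2 had 0.19 in THP-1, and 0.35 without replicate 2.

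The GTPases MX1, MX2, GBP1 and GBP2 act on viral capsids and pathogen membranes, and 0 of 4 passed in either line. MX1 signal was 8.4 and 186.1 in THP-1 with DMSO, neither above its background, and 157.9 and 153.0 with diclofenac. The groups overlapped in these signals and were apart after normalization, and the change did not pass (limma adjusted p = 0.48). In HL-60 it was 127.1 and 12.2 with DMSO against 16 and 62.0 with diclofenac, a wide spread within each group. GBP2 had 73.3 and 159.4 against 141.5 and 103.0 in THP-1, apart after normalization with a change of 0.45 and overlapping in the deposited signals. None of its HL-60 arrays, at 32.3, 46.2, 15.6 and 6.2, was above background. MX2 had a THP-1 change of -0.31, which was -0.00 without replicate 2, and GBP1 was not above background on both arrays of any group.

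ISG15, the ubiquitin-like modifier, had 347.4 and 514.2 in THP-1 with DMSO and 877.2 and 687.5 with diclofenac, beside 909.2 and 627.6 in HL-60 with DMSO and 747.8 and 819.8 with diclofenac. The THP-1 control arrays were below the other 6, and the log2 change was 0.85 ± 0.21 (limma adjusted p = 0.27), or 1.00 without replicate 2. UBE2L6, which conjugates ISG15, had -0.11 (0.23 without replicate 2), and USP18, which removes it and dampens the receptor, had -0.07 (-0.58 without replicate 2), with signals of 133.0 and 111.9 in THP-1 with DMSO and 83.3 and 75.2 with diclofenac. None of the 3 passed in either line.

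The antigen processing role had 5 measured members, of which LAP3 rose in THP-1 and 0 others passed. PSMB9, a subunit of the immunoproteasome, had 1035.6 and 1091.8 in THP-1 with DMSO and 1246.4 and 1268.4 with diclofenac. Its HL-60 signal was 502.4 and 459.0 with DMSO against 591.7 and 529.6 with diclofenac, so diclofenac arrays were higher in both lines, by 0.17 and 0.25. TAP1, a subunit of the peptide transporter, had 588.1 and 593.9 against 702.6 and 703.1 in THP-1 and 533.4 and 447.7 against 541.5 and 499.0 in HL-60. Its groups were apart in both lines after normalization, by 0.27 in THP-1 and 0.12 in HL-60. PSMB8 had 0.06 in THP-1 and TAP2, the partner of TAP1, had -0.38, or 0.03 without replicate 2.

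The nuclear body proteins SP100 and SP110 and the antiviral TRIM22 had THP-1 changes of 0.02, 0.13 and 0.29, and 0 passed. TRIM22 signal was 342.7 and 523.9 in THP-1 with DMSO and 537.8 and 461.0 with diclofenac, and 453.4 and 302.6 against 453.1 and 444.1 in HL-60. Its groups were apart after normalization and overlapped in the deposited signals in both lines. Besides IFI6, the apoptosis-linked members were IFI27, a small mitochondrial protein, with a THP-1 change of -0.01, and XAF1, an antagonist of the apoptosis inhibitor XIAP, with 0.32 (0.79 without replicate 2). The secreted members CXCL10, a chemokine, and LGALS3BP, a galectin ligand, had -0.29 and 0.08, which became 0.62 and 0.73 without replicate 2.

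IFI35, an interferon-induced leucine zipper protein, had 271.7 and 245.7 in THP-1 with DMSO and 461.3 and 378.0 with diclofenac, beside 76.0 and 64.1 against 111.6 and 60.3 in HL-60. Its THP-1 change was 0.93 ± 0.40 (limma adjusted p = 0.46), and 0.49 without replicate 2. IFI44 had 0.04 (0.67 without replicate 2), and IFI44L was above background on no array.

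In HL-60, 0 of 45 members passed the limma test, with a lowest adjusted p of 0.76 for the immunoproteasome subunit PSMB8. Its signal was 1493.0 and 1516.2 with DMSO against 1913.2 and 2126.9 with diclofenac, a log2 change of 0.39 ± 0.11, and the groups did not overlap. Called shares of all genes were 0.00836% higher and 0% lower, and at an unadjusted p under 0.05 the members numbered 1 higher (2.43% of all genes) and 0 lower (2.13%). Changes ran from -0.44 for GBP2, not above background there, to 0.71 for CXCL10, whose signal was 75.5 and 34.9 with DMSO against 123.3 and 76.2 with diclofenac. IFI6 followed at 0.67 ± 0.34 (limma adjusted p = 1.00), with diclofenac arrays above DMSO arrays.

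Diclofenac arrays of HL-60 lay above both DMSO arrays for 18 members, where 20.7% of all genes did, and below for 6, where 19.7% did. The deposited signals gave 13 above (15.7% of all genes) and 8 below (25.2%). Changes above 0 numbered 30 of 45, against 49.9% of all genes, with a median of 0.12 beside -0.00 for all genes. Of the 6 members below, IFIT3, IFITM1, IFITM3, GBP2 and LAP3 were among the 23 above in THP-1, and OAS2 was the sixth.

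**Figure D2:**
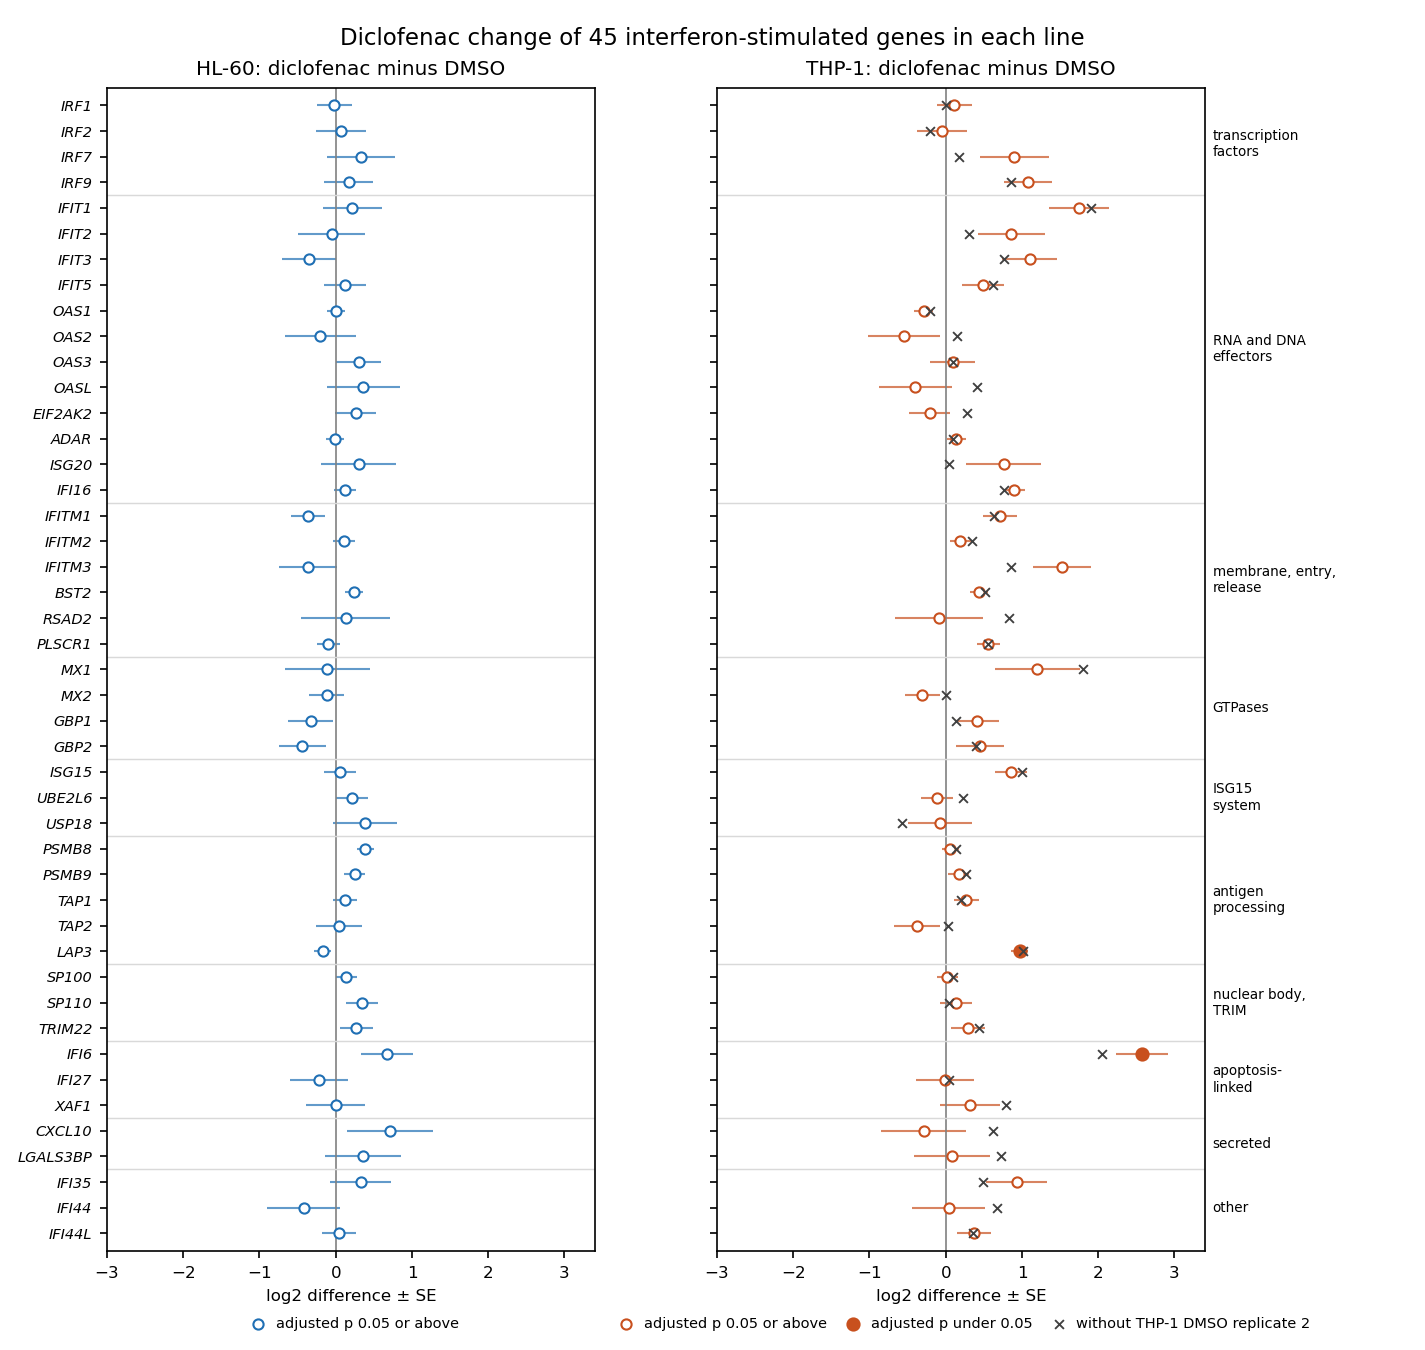
Log2 change with diclofenac (diclofenac minus DMSO) of each of the 45 members in HL-60 and in THP-1, in log2 units, as points with the moderated standard error as bars; filled points have a limma adjusted p under 0.05 and crosses in the THP-1 panel are values without THP-1 DMSO replicate 2. Filled points are IFI6 and LAP3 in THP-1, and no HL-60 point is filled.

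**Figure D3:**
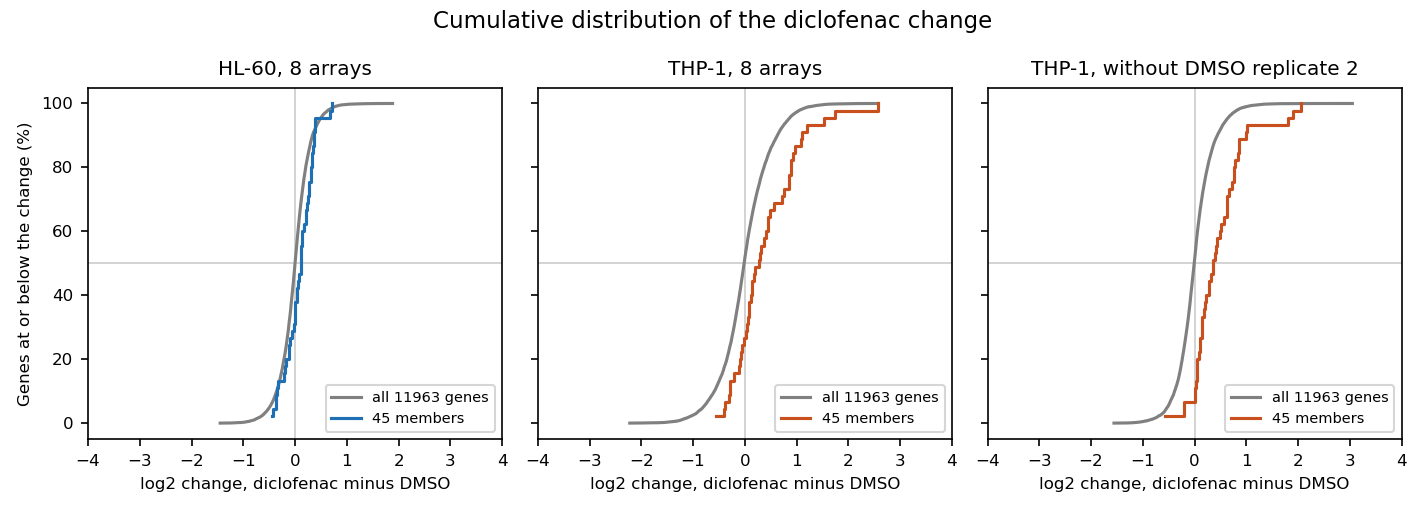
Cumulative share of genes by log2 change with diclofenac, for the 45 members and for all 11963 genes, in each line. At the median the members' curve lies at higher values than that of all genes, with a median of 0.27 in THP-1 and 0.12 in HL-60, beside -0.01 and -0.00 for all genes; the third panel leaves out THP-1 DMSO replicate 2 and has a median of 0.36.

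Whether the response differed between the lines was tested for each gene as the THP-1 change minus the HL-60 change. With limma, 0 of 45 members passed, as did 0% of all genes, and at an unadjusted p under 0.05, 9 members were higher in THP-1 (3.96% of all genes) and 0 lower (3.43%). LAP3 came nearest with a difference of 1.14 ± 0.16 (95% interval 0.78 to 1.5, limma adjusted p = 0.17), followed by IFI6 with 1.91 ± 0.48 and IFI16 with 0.78 ± 0.20 (limma adjusted p = 0.45 for both). The intervals of these genes exclude 0 before adjustment over all probe sets. The median difference over the members was 0.20, beside -0.01 for all genes, and 0.26 without replicate 2. Without THP-1 DMSO replicate 1, 12 members passed, 8 higher and 4 lower, where 19.5% of all genes were called.

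The untreated lines differed in 13 of 45 members, 4 higher and 9 lower in THP-1 than in HL-60, where 9.28% of all genes were called higher and 9.41% lower. These comparisons share the THP-1 DMSO arrays with the THP-1 treatment comparison. The peptide transporter subunit TAP2 (2.16), PSMB9 (1.14), IFITM1 (1.12) and PLSCR1 (0.68) were higher in THP-1 on the log2 scale. The lower members were SP100 (-2.21), IFI6 (-2.15), IFI16 (-1.83), IFITM3 (-1.59), OAS3 (-1.37), LAP3 (-1.08), IFITM2 (-0.92), ISG15 (-0.82) and BST2 (-0.70). Without THP-1 DMSO replicate 2 all 13 passed again, with IFI35 (1.62), UBE2L6 (-0.83) and EIF2AK2 (-0.76) in addition, where 11.4% of all genes were called higher and 11% lower.

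SP100, a constituent of PML nuclear bodies, had the largest difference among the 45 members, with 3874.7 and 3237.7 in HL-60 with DMSO and 680.1 and 767.1 in THP-1 (log2 difference -2.21 ± 0.14, limma adjusted p = 2.4e-05). Of its other 4 probe sets, 2 were above 0, at 0.50 (limma adjusted p = 0.17) and 0.32, and 2 were below, at -0.23 and -0.40, the last of which was 0.14 without replicate 2. A gap for the whole gene is thus not shown. TAP2 had 187.2 and 265.2 in HL-60 and 849.1 and 1352.9 in THP-1, by 2.16 ± 0.30 (limma adjusted p = 0.0016), and its other probe sets were 1.81 and -0.40. IFI16 was lower by all of its probe sets, at -1.83, -2.05 and -1.16. Arrays were apart for 10 members higher (26.9% of all genes) and 16 lower (26% of all genes), and the median was -0.11 beside 0.03 for all genes.

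The count of 13 became 8 without HL-60 DMSO replicate 1, where 9.71% of all genes were called in either direction. It became 24 without THP-1 DMSO replicate 1, 11 higher and 13 lower, where 44.8% of all genes were called. With each array centred on its median, 5 passed, 1 higher and 4 lower, beside 6.32% of all genes. On the deposited scale the members' median was 0.09, beside 0.17 for all genes, so its sign depends on the scaling while it stays below the median of all genes.

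Under diclofenac the lines differed in 13 of 45 members, 6 higher and 7 lower in THP-1, where 8.45% of all genes were called higher and 7.67% lower. IFITM1 (2.19), TAP2 (1.74), IFI35 (1.70), GBP2 (1.48), PLSCR1 (1.34) and PSMB9 (1.07) were higher. SP100 (-2.33), OAS3 (-1.58), IFI16 (-1.05), IFITM2 (-0.83), UBE2L6 (-0.80), OAS1 (-0.55) and BST2 (-0.50) were lower. Both other probe sets of TAP2 were below 0 in this comparison, at -0.52 and -0.25. GBP2 was below background on every HL-60 array and is at least 1.75-fold higher in THP-1. Arrays were apart for 20 members higher (30.7% of all genes) and 12 lower (31.5% of all genes), and the median was 0.19 beside -0.00.

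IFI6, LAP3, ISG15 and IFITM3 were called between the untreated lines and not between the treated ones. IFI6 differed by -0.25 ± 0.34 under diclofenac (95% interval -1.02 to 0.53), LAP3 by 0.06 ± 0.11 (-0.19 to 0.32), ISG15 by -0.02 ± 0.21 (-0.51 to 0.47) and IFITM3 by 0.30 ± 0.38 (-0.56 to 1.16). These intervals do not show that the levels were equal. The change in this difference is the interaction given above, which did not pass for any of these genes. Without HL-60 diclofenac replicate 1 or 2, 6 and 7 members passed under diclofenac, beside 7.97% and 8.01% of all genes. Without THP-1 diclofenac replicate 1 or 2, 6 and 5 passed, beside 7.45% and 7.59%. With median centring 6 passed, 4 higher and 2 lower, beside 5.69%.

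**Figure D4:**
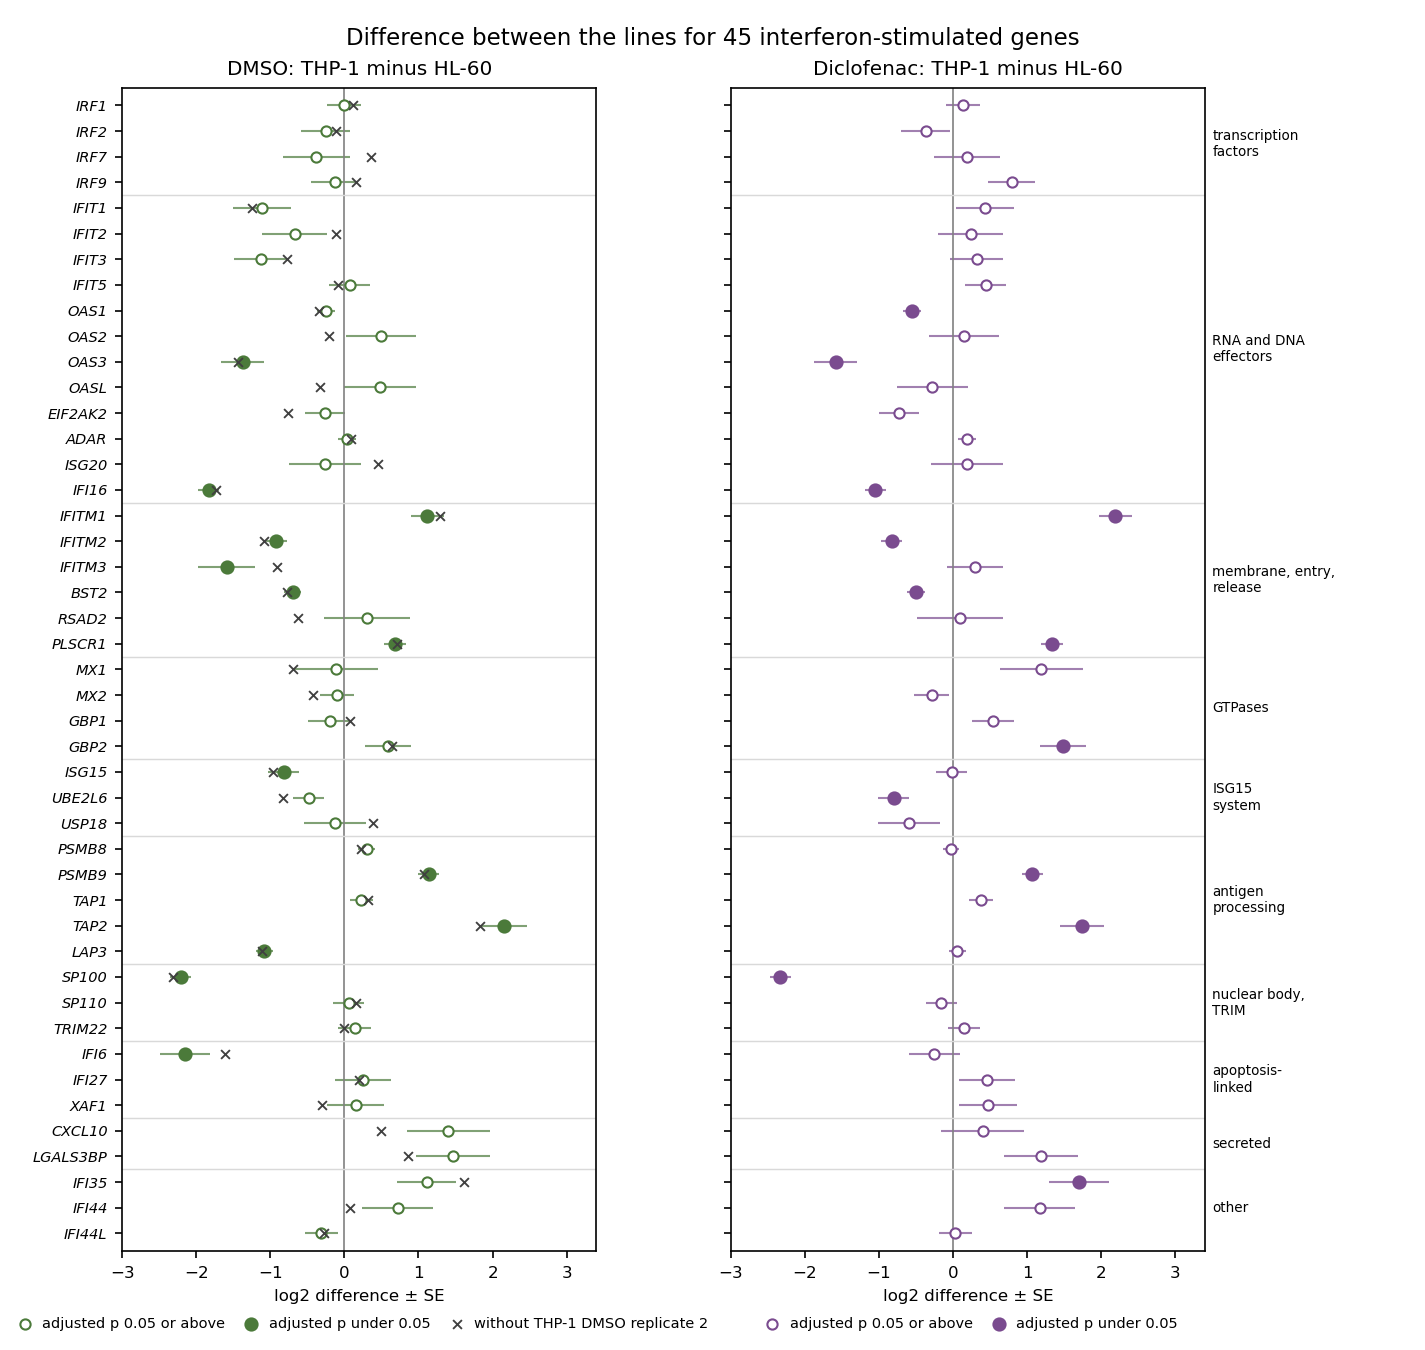
Log2 difference between the lines (THP-1 minus HL-60) for each of the 45 members under DMSO and under diclofenac, with the moderated standard error as bars. Filled points have a limma adjusted p under 0.05, and crosses in the DMSO panel are values without THP-1 DMSO replicate 2. IFI6, LAP3, ISG15 and IFITM3 are filled and negative under DMSO and open near 0 under diclofenac, while SP100, OAS3 and TAP2 are filled in both panels.

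Genes around the members in the interferon pathway were read from the same fit. Between the untreated lines, 9.28% of all genes were called higher and 9.41% lower in THP-1. Under diclofenac these shares were 8.45% and 7.67%, and the counts between lines below stand beside them. Of 14 interferon genes measured, 4 were above background in some group and 0 passed in any comparison, and IFNB1 signal was at most 15.9 outside THP-1 DMSO replicate 2, where it was 69.3, below that array's background. The 11 receptors, kinases and signal transducers held 0 calls for diclofenac in either line, and 1, IL10RB, a receptor chain shared with interferon lambda, without replicate 2 (log2 change 0.73, limma adjusted p = 0.049). Their THP-1 changes were -0.01 for IFNAR1, 0.23 for IFNAR2, 0.55 for JAK1 and -0.50 for TYK2.

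Between the untreated lines 3 of these 11 were higher in THP-1, IFNGR2 (0.53), IL10RB (0.54) and the coactivator CREBBP (0.99), and JAK1 was lower, with 1501.9 and 1778.8 in HL-60 and 628.7 and 429.4 in THP-1 (log2 difference -1.69 ± 0.24, limma adjusted p = 0.0021). Under diclofenac 6 were higher, with IFNGR1 (0.77), STAT3 (0.67) and EP300 (0.87) added, and JAK1 was lower by -1.08. Called members of the inhibitor list, 9 genes, were PTPN11 (0.42) higher and PIAS1 (-1.28) and PTPN2 (-0.71) lower between untreated lines, and PIAS1 (-1.19) and PTPN2 (-1.19) under diclofenac. SOCS1, the feedback inhibitor of JAK kinases, had a THP-1 change of 0.23, or -0.23 without replicate 2.

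The 19 nucleic acid sensors and adaptors had 0 called for diclofenac. In untreated THP-1, 5 were lower (9.41% of all genes), and in treated THP-1, 4 were lower (7.67% of all genes). The RNA sensor IFIH1 had 424.3 and 453.9 in HL-60 with DMSO and 69.9 and 57.8 in THP-1, and 134.0 and 151.8 in THP-1 with diclofenac (differences between lines of -2.33 with DMSO and -1.33 with diclofenac). Its adaptor MAVS differed by -2.02 and -1.79 and MYD88, the adaptor of most Toll-like receptors, by -0.56 and -0.51. IKBKE (-0.76) and IRF3 (-1.08) were lower with DMSO and DDX3X (-0.46) with diclofenac. IRF3, the factor that first turns on IFNB1, had 679.3 and 609.0 in HL-60 with DMSO and 213.5 and 404.7 in THP-1.

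Of 5 other interferon regulatory factors, IRF8, which directs monocyte development, was higher in THP-1, with 4494.6 and 3575.2 against 1821.9 and 1599.8 in HL-60 under DMSO (1.32) and by 0.95 under diclofenac. IRF5 was lower with DMSO (-1.47). None changed with diclofenac past the threshold, and the THP-1 change of IRF8 was -0.35.

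A further 33 interferon-induced genes outside the list had 0 calls for diclofenac in either line, a THP-1 median of 0.18 (0.14 without replicate 2) and 26 above 0. Between the untreated lines 4 were higher in THP-1, SAMHD1 (2.60), a nucleotide hydrolase of myeloid cells, WARS1 (1.38), SCO2 (0.89) and TRIM14 (0.70), and NMI (-0.54) was lower. Under diclofenac 3 were higher, SAMHD1 (2.60), SLC15A3 (2.09) and WARS1 (1.01). Of 13 other genes of class I presentation, 0 were called for diclofenac. In untreated THP-1, 5 were higher, ERAP1 (1.75), PSMB10 (1.57), HLA-G (0.77), HLA-F (0.56) and PSME1 (0.49), and B2M (-0.22) and PDIA3 (-0.37) were lower. Under diclofenac 6 were higher, those 5 and HLA-E (0.63). Of all genes, 9.28% were called higher and 9.41% lower in untreated THP-1, and 8.45% and 7.67% under diclofenac. The HLA genes are close copies, and their probe sets may bind more than 1 of them.

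IFI6 was also set against 9400 other genes above background in some group, by the Pearson r of normalized log2 signal over the 8 arrays, which form 4 groups. The most alike were UPP1 (r = 0.989), PIGK (0.988), KLF10 (0.978), FOXD2 (0.973) and SH3BP5 (0.969), none of them a member. UPP1 signal was 77.5 and 50.2 in THP-1 with DMSO and 229.2 and 277.3 with diclofenac, beside 197.6 and 214.5 against 339.6 and 315.0 in HL-60. Among the members, IFITM3 had an r of 0.892, LAP3 of 0.886 and IFIT3 of 0.870.

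Many members lie near each other in the genome. By gene order in RefSeq, with at most 5 genes apart, 22 members form 8 clusters. The 4 IFIT genes lie together on chromosome 10. Their THP-1 changes were 0.86 for IFIT2 and 1.10 for IFIT3, IFIT1 has the bound given above, and IFIT5 was too dim for a value. The 4 genes TAP2, PSMB8, TAP1 and PSMB9 on chromosome 6 had -0.38, 0.06, 0.27 and 0.17. The IFITM genes on chromosome 11 had differences between untreated lines of -0.92 for IFITM2, 1.12 for IFITM1 and -1.59 for IFITM3, calls of both signs within 1 cluster.

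The ISRE core shown above in the promoter windows was set beside the THP-1 changes as a description. The 20 members with a core had a median change of 0.46 (0.62 without replicate 2), from -0.38 for TAP2 to 2.58 for IFI6, and 13 had diclofenac arrays above their controls. The 15 measured members without it had a median of 0.13 (0.27 without replicate 2), from -0.29 for OAS1 to 1.2 for MX1, whose controls were not above background, and 6 were above. Of all genes, 19.4% had diclofenac arrays above their controls. IFI44L, IFIT5 and GBP1, which passed background on both arrays in no group, are all among the 20. The 13 include IFI44L and GBP1, so that count rests in part on members too dim for a value. The fitted THP-1 changes of the 3 dim members lay near the median of the 20, at 0.37 for IFI44L, 0.49 for IFIT5 and 0.41 for GBP1. IFI16 and IFI35 lack the core in this window and TAP2, BST2 and CXCL10 hold it. The search allowed only a gap of 2 bases. The windows of IFI35, OAS1 and RSAD2 hold GAAA repeats with a shorter gap, and these genes count as without the core. In HL-60 the medians were 0.04 with and 0.14 without the core.

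Probe sets of the same gene disagreed in sign by more than 0.3 in some comparison for 11 members, among them IFIT5, which was too dim for a value. Besides SP100, TAP2, OAS1 and EIF2AK2 above, the THP-1 change of IFI44 was 0.04 and -1.11 (0.17 without replicate 2). That of OAS2 was -0.55 and 0.60, that of ISG20 0.76 and -0.05 and that of SP110 0.13 and -0.38. Without replicate 2 these pairs had the same sign, at 0.15 and 0.70 for OAS2, 0.04 and 0.08 for ISG20 and 0.04 and 0.11 for SP110. The second probe sets of OAS2 and ISG20 were above background on both arrays of no group. PLSCR1 differed between untreated lines by 0.68 and by -0.46, the latter 0.75 without replicate 2. OASL differed in HL-60 only, 0.36 against -0.01.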

How the data were processed

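Total RNA of each culture was labelled with biotin and hybridised to Affymetrix HU-133A arrays, per the labels. The deposited value table holds 1 linear intensity per probe set and array, which the authors had scaled to a 2% trimmed mean near 500 as the values show; the software is not given in the sources used here. Intensities were turned to log2 (intensity + 50). The medians of the 8 arrays spanned 0.87 log2 units, so quantile normalization was applied. Fold changes are on this scale, which understates changes of dim genes.

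The table has 22277 probe sets; without 62 controls, 22215 were tested. The platform annotation gave 1 symbol for 19064, several for 1043 and none for 2108, and only probe sets with 1 symbol were named. A mean per group (4 groups) was estimated in limma 3.58.1 under R 4.3.3 (eBayes with an intensity trend, 4 residual degrees of freedom, median prior of 4.41), with Benjamini-Hochberg adjustment over all tested probe sets of a contrast and a threshold of 0.05. The fits were tested on simulated data, with changes planted only in probe sets of moderate to high signal. Recovery of changes in dim genes was not tested. Replicate numbers did not enter the fit: same-numbered arrays had deviations with a correlation of -0.00 (HL-60) and -0.01 (THP-1).

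The members, pathway lists and roles were chosen with earlier results of these data known. Signals on every array are given for the 22 members that were called for diclofenac or whose THP-1 arrays did not overlap, also without THP-1 DMSO replicate 2, and that were above background in some group; pathway genes are named where called, with 9 named whatever their values. SP100, TAP2, PSMB8, CXCL10, IFIH1, UPP1, IRF3 and USP18 signals were added after their values were seen. Alternatives were the deposited scale, median centring, an offset of 16, a filter on the dimmest 40%, no trend, a replicate block, averaging all probe sets of a gene, another choice of probe set, each line alone and each array left out. The count of arrays apart in the deposited signals was chosen after seeing the data. Promoters came from RefSeq (GRCh38.p14). Plots used matplotlib 3.10.9 (Python 3.11.15).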

Additional observations from a re-analysis of the deposited data

Results flagged for a closer look

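For 5 of the 45 members (11.1%), every diclofenac array moved one way against DMSO in THP-1 and every array moved the other way in HL-60, in each case higher in THP-1 and lower in HL-60. Of all genes, 8.11% moved in opposite directions and 3.85% in this one. The THP-1 change minus the HL-60 change was 1.89 on the log2 scale for IFITM3, 1.45 for IFIT3, 1.14 for LAP3, 1.07 for IFITM1 and 0.89 for GBP2. The test of this difference did not pass for any of them, with limma adjusted p = 0.52, 0.63, 0.17, 0.53 and 0.73 in the same order. All 4 HL-60 arrays of GBP2 were below background. The lowest value of THP-1 DMSO lies on replicate 2 for IFIT3, IFITM1, IFITM3 and GBP2 after normalization, and without that array the adjusted p was 0.35, 0.28, 0.14 and 0.55, and 0.085 for LAP3.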

How the results depend on the processing

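Counts of members passing the limma test are given here by comparison. In HL-60 it was 0 under every alternative run. In THP-1 it was 2 and became 0 with median centring, 0 without the intensity trend, 0 with each line fitted alone and 1 (LAP3) when all probe sets of a gene were averaged, and it ranged from 0 to 23 over the fits that left out 1 array. The difference between the lines had 0 and ranged from 0 to 12 when 1 array was left out. THP-1 against HL-60 had 13 under DMSO, 5 with median centring and 8 to 24 with 1 array left out, and 13 under diclofenac, 6 with median centring and 5 to 18 with 1 array left out. Under diclofenac, the fits with 18 each left out a THP-1 DMSO array, and they also called a larger share of all genes than the fit with 5. The rise to 18 is thus not particular to the members. Same-numbered arrays share a number only. With the replicate block the counts were 0 in HL-60, 2 in THP-1 (0.192% of all genes) and 0 for the difference. Between the lines they were 8 under DMSO (9.81% of all genes) and 8 under diclofenac (9.55%). No called member changed sign under any alternative run. The median over the members stayed above 0 in both lines, at 0.04 to 0.20 in HL-60 and 0.11 to 0.47 in THP-1. Relative to all genes it was 0.27 in THP-1 and 0.10 in HL-60 on the deposited scale. Median centring gives the same relative values by construction, because it shifts all genes of an array alike. The cause of the changed counts was not tested. With 2 arrays per group, and 30 of 45 members above the background of THP-1 DMSO replicate 2, small changes of dim members cannot be measured.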
